A study of Rattus norvegicus with 5 samples.

Results

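The 2 ribosomal RNAs (rRNA) encoded by the rat mitochondrial genome, 12S (Mt-rnr1, ENSRNOG00000030478) and 16S (Mt-rnr2, ENSRNOG00000043866), were examined in microglia from the offspring of CYP11A1-overexpressing and control dams. They are 2 of the 35495 features counted, were chosen by identifier, and were detected in all 5 libraries. Dams were given adenovirus that carried the CYP11A1 cDNA behind a CMV promoter, or the control vehicle adenovirus, during gestation. Their Sprague Dawley offspring were not themselves injected, and only males were sequenced. Microglia were isolated from minced brain on Percoll gradients, and full-length cDNA was amplified from their total RNA. The control group had 2 libraries (control 1 and control 3) and the CYP11A1 group had 3 (CYP11A1 1, 2 and 3). The study states n = 3 for each group, and no control 2 is among the libraries of the series. The sample labels give an age of 3 months, and the methods of the study give a younger one. Nothing in the labels says whether the offspring of a group came from separate litters, so the p-values measure only the spread between these libraries.

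Mitochondrial ribosomes synthesize the few respiratory chain proteins that the mitochondrial genome encodes. The 12S rRNA forms the core of their small subunit and the 16S rRNA, which carries the peptidyl transferase centre, the core of their large subunit. Both genes lie side by side on the heavy strand, separated by a tRNA gene, and are transcribed together in the same precursor, from which the flanking tRNAs are cut out. Both mature rRNAs carry short 3′ adenine tails, and their level is often read as a sign of the mitochondrial RNA content of a cell. The libraries were made from whole-cell RNA. In them, fewer mitochondria per cell, less rRNA per mitochondrion and poorer copying of the rRNA into cDNA cannot be told apart.

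The identity of both features was checked by their length, recovered from the count and the FPKM, in which counts are divided by feature length and by the library total. The length was 958 bp for 12S rRNA and 1571 bp for 16S rRNA, the same in all 5 libraries, close to the known sizes of these RNAs. The files pair no identifier with a gene symbol (0 matched), so the microglial identity of the cells was not checked against marker genes, and the mitochondrial mRNAs and nuclear mitoribosome genes were not analysed here as named lists. The study identified the cells by Cd11b staining, and by its account not all of them were positive. Total counts ranged from 9623896 to 13624545. The 2 deepest libraries, control 1 and CYP11A1 3, detected the fewest features, 12042 and 10766 against 14953 to 16969 in the others.

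The 16S rRNA was among the 10 most counted features in every library. It had 509363 counts in control 1 and 517593 in control 3. It had 445983 counts in CYP11A1 1, 345411 in CYP11A1 2 and 274554 in CYP11A1 3. The raw counts of both controls were thus above those of all 3 CYP11A1 libraries, but the library totals differ, and after scaling to the total the groups overlapped. In CPM, which sets every library to the same total, 16S rRNA stood at 37386 and 53782 in control 1 and 3, against 40385, 32866 and 20739 in CYP11A1 1, 2 and 3. CYP11A1 1 lay between the controls, and the CYP11A1 library was the lower one in 5 of 6 pairings with a control. The means were 45584 ± 11594 CPM in controls (SD, n = 2) and 31330 ± 9913 in the CYP11A1 group (SD, n = 3). By count, 16S rRNA ranked between 4th (control 3) and 10th (CYP11A1 3).

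The 12S rRNA was far less counted. It had 6642 counts in control 1 and 5632 in control 3, and 8306, 5820 and 2824 counts in CYP11A1 1, 2 and 3. Scaled to the library total, this was 488 and 585 CPM in control 1 and 3, and 752, 554 and 213 CPM in CYP11A1 1, 2 and 3. The highest and the lowest library both belonged to the CYP11A1 group, a 3.53-fold range that enclosed both controls, which differed from each other 1.20-fold. The means were 536 ± 69.1 CPM in controls (SD, n = 2) and 506 ± 273 in the CYP11A1 group (SD, n = 3). Its rank by count lay between 81 in CYP11A1 1 and 497 in CYP11A1 3.

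**Figure D1:**
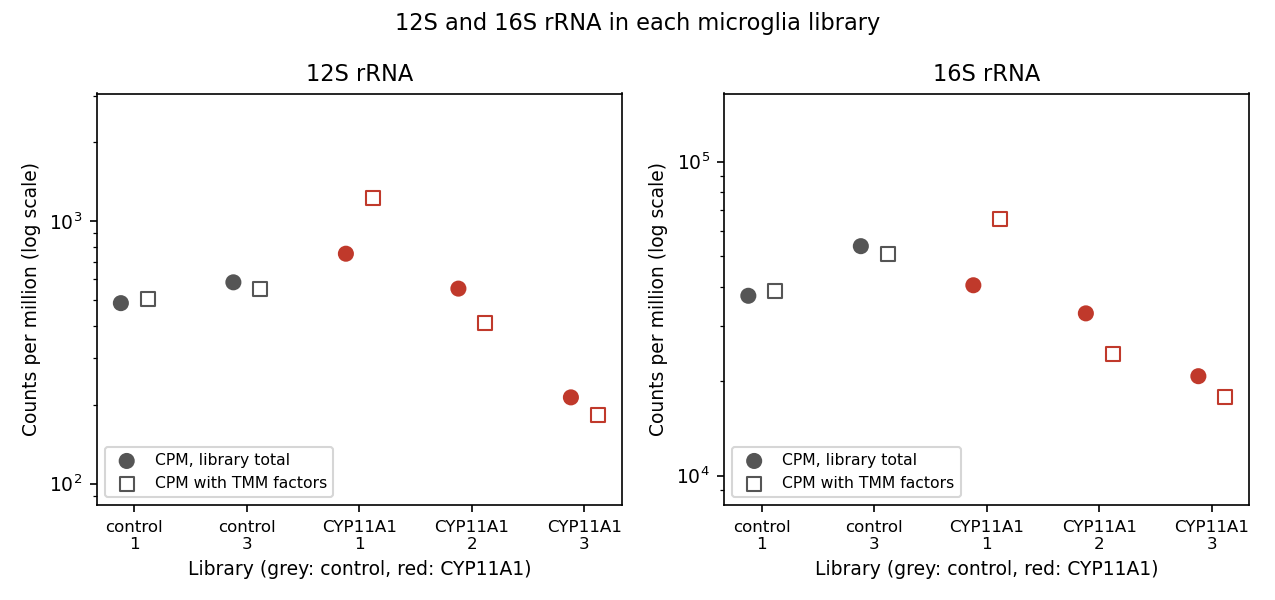
Level of 12S rRNA (left) and 16S rRNA (right) in each of the 5 libraries, in CPM on a log scale. Filled circles are scaled to the library total and open squares also carry edgeR's TMM factors, which raise CYP11A1 1 above all other libraries for 16S rRNA, from 40385 to 65856.

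The comparison between the groups asks whether overexpression of CYP11A1 in the dam goes with a change of these rRNAs in the microglia of the offspring. The TMM factors, which correct for the share that a few abundant features take, ranged from 0.615 in CYP11A1 1 to 1.35 in CYP11A1 2. With them, 16S rRNA was 38750 and 50786 CPM in control 1 and 3, and 65856, 24370 and 17760 CPM in CYP11A1 1, 2 and 3. For 12S rRNA the values were 505 and 553 CPM in the controls and 1227, 411 and 183 CPM in CYP11A1 1, 2 and 3. For both genes the CYP11A1 libraries fell on either side of the controls, with CYP11A1 1 above them and the other two below. Over all features tested, 14.4% had groups that did not overlap on this scale and 13.3% had such groups in CPM scaled to the total, and neither rRNA was among them on either scale.

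In edgeR's quasi-likelihood test neither rRNA differed between the groups beyond the spread between libraries. The log2 fold change of 16S rRNA in the CYP11A1 group was -0.31 ± 0.69 (SE), with a 95% interval of -1.81 to 1.18 and an adjusted p of 0.9998. That of 12S rRNA was 0.20 ± 0.80 (SE), with a 95% interval of -1.54 to 1.94 and an adjusted p of 0.9998. With library size alone in place of TMM, 16S rRNA was at -0.54, and the sign of 12S rRNA turned to -0.082. Both intervals include changes of 2-fold in either direction. The unadjusted p was 0.654 for 16S and 0.81 for 12S rRNA. Of the 10346 features tested, 0% passed an adjusted p of 0.05 and 4.26% (441) had an unadjusted p under 0.05. DESeq2 called 11. The median log2 fold change of all features tested was 0.15.

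Single libraries set these values. Without CYP11A1 1, the log2 fold change of 16S rRNA was -1.09, and that of 12S rRNA was -0.83. The quasi-likelihood p of edgeR for 16S rRNA was then 0.0328 unadjusted, with an adjusted p of 0.9997. In that fit, 369 of the 9999 features tested had an unadjusted p under 0.05. Without CYP11A1 3, the log2 fold changes of 16S and 12S rRNA were 0.030 and 0.65. Without control 1 and CYP11A1 3, the libraries with the fewest features detected, they were -0.19 and 0.55. That fit was chosen after seeing the data and leaves a single control. The part of the number of features detected in the level of the rRNAs was not tested.

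**Figure D2:**
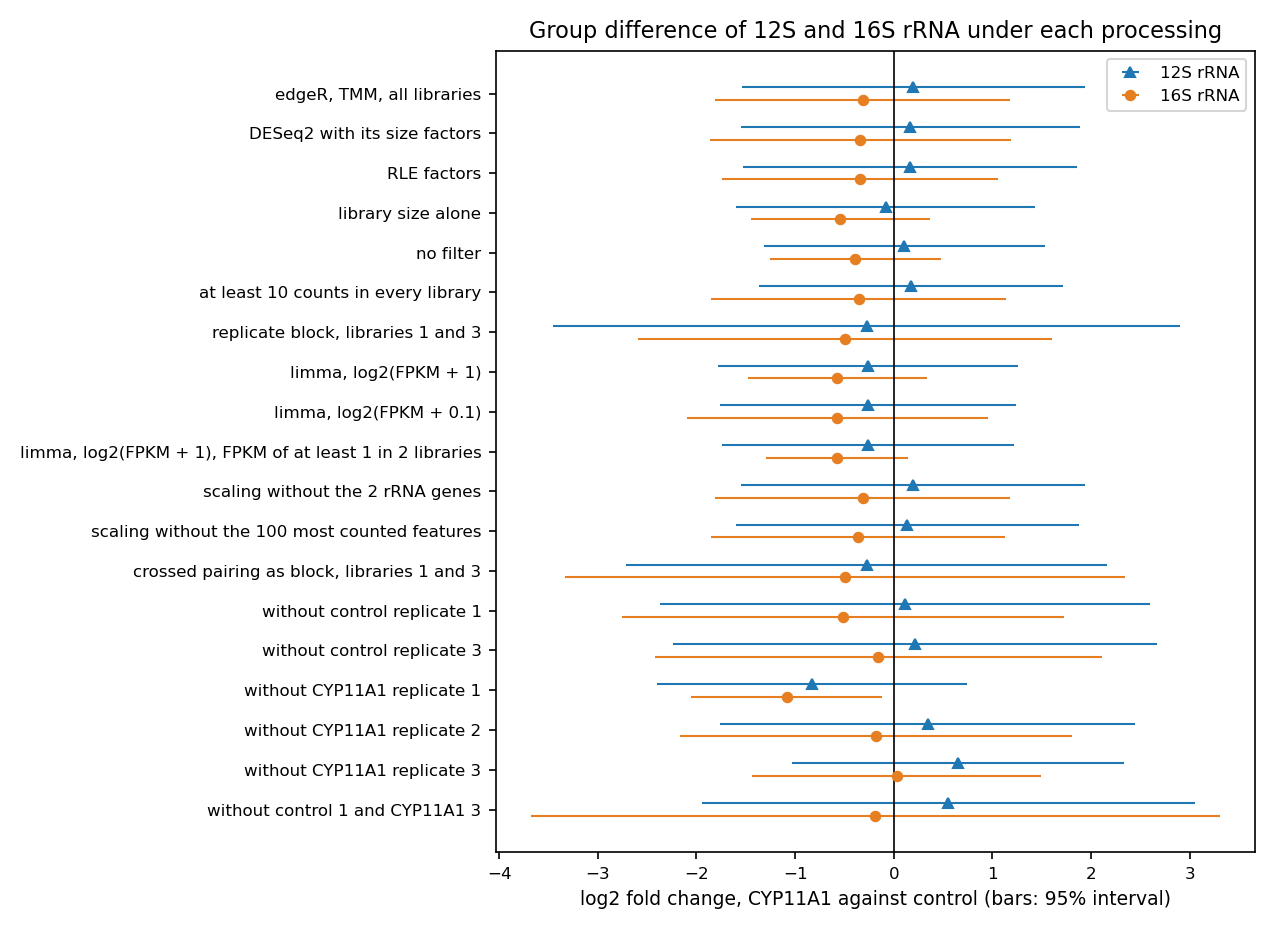
Log2 fold change of 12S rRNA (triangles) and 16S rRNA (circles), CYP11A1 against control, with 95% intervals, for the edgeR test on all libraries and each alternative processing. The values scatter on both sides of 0 for 12S rRNA, and 16S rRNA lies below 0 except without CYP11A1 3 (0.030).

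The share of a library taken by both rRNA genes is the sum of their CPM expressed in percent, scaled to the library total and without the TMM factors. It was 3.79% of the counts in control 1 (95% Wilson interval 3.78% to 3.80%) and 5.44% in control 3 (5.42% to 5.45%). It was 4.11% in CYP11A1 1 (4.10% to 4.13%), 3.34% in CYP11A1 2 (3.33% to 3.35%) and 2.10% in CYP11A1 3 (2.09% to 2.10%). The intervals of no 2 libraries overlapped, so the libraries differed by more than the counting error of reads, which is all that these intervals cover. They treat reads as independent. Since the reads carry no molecular identifiers, the sampling of molecules and their amplification are not covered. The group means were 4.61% ± 1.17 (SD, n = 2) in controls and 3.18% ± 1.02 (SD, n = 3) in the CYP11A1 group. The difference of -1.43 percentage points did not pass an exact permutation test (two-sided p = 0.4, with 0.2 the lowest value possible for 2 against 3 libraries). It was -0.60 points without control 3, -0.88 without CYP11A1 3 and -2.25 without control 1.

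The ratio of the 2 rRNAs to each other does not depend on the scaling between libraries. There were 76.7 counts of 16S for each count of 12S rRNA in control 1 (95% exact binomial interval 74.9 to 78.6) and 91.9 in control 3 (89.5 to 94.4). There were 53.7 in CYP11A1 1 (52.5 to 54.9), 59.3 in CYP11A1 2 (57.8 to 60.9) and 97.2 in CYP11A1 3 (93.7 to 101). These intervals, too, cover only the counting of reads. CYP11A1 1 and 2 were below both controls and CYP11A1 3 was above them. Per length, in FPKM, 16S rRNA was 32.7 to 59.3 times as high as 12S rRNA. The 16S rRNA stood at 13201 to 34234 FPKM, and 12S rRNA at 223 to 785 FPKM. How well each rRNA was copied into cDNA was not tested, so these are ratios of reads and need not be those of RNA molecules. The mean log2 ratio of counts was 6.39 ± 0.18 (SD, n = 2) in controls and 6.08 ± 0.46 (SD, n = 3) in the CYP11A1 group. The difference of -0.31 did not pass an exact permutation test (two-sided p = 0.6, again with 0.2 the lowest possible). It was -0.57 without CYP11A1 3, -0.18 without control 3 and -0.14 without CYP11A1 1.

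**Figure D3:**
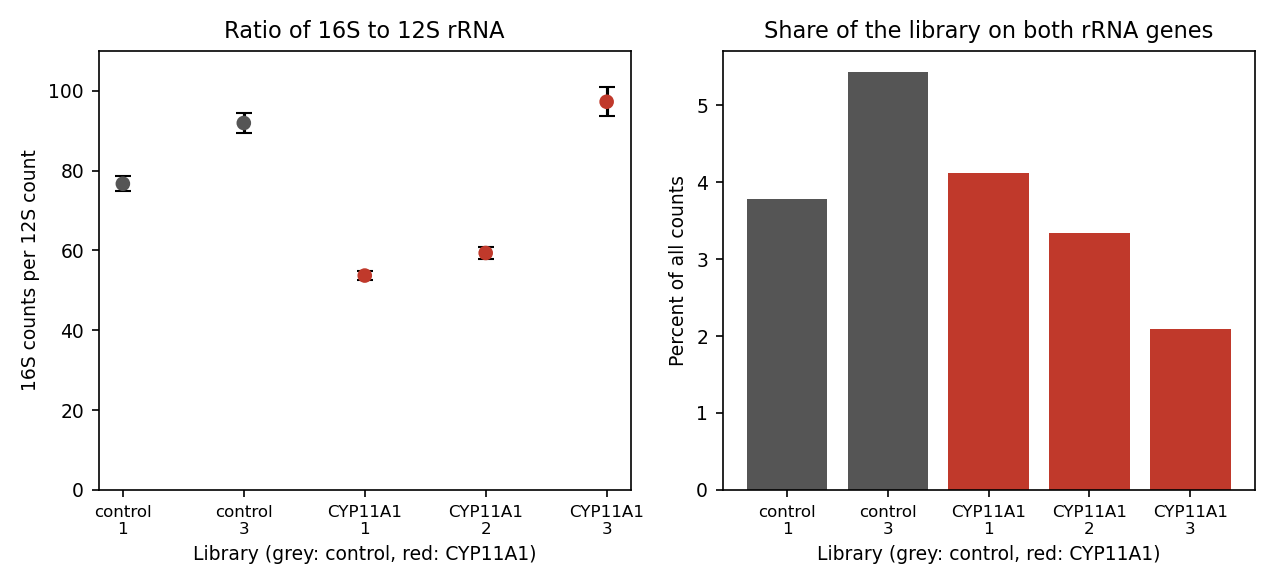
Left, counts of 16S rRNA for each count of 12S rRNA in each library, with 95% exact binomial intervals. Right, percent of all counts that fell on both rRNA genes; the groups overlap in both panels, and CYP11A1 3 has the highest ratio (97.2) and the lowest share (2.10%).

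The variation of both rRNAs across the 5 libraries was set beside that of the 737 features with a mean count of at least 1000. On the log2 scale, the SD over libraries was 0.50 for 16S and 0.69 for 12S rRNA in CPM scaled to the total, below the median of 0.84. With the TMM factors it was 0.77 and 0.98, above the median of 0.72. Whether the rRNAs were more or less variable than most features therefore depended on the scaling.

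The pattern over libraries was then compared between features by the root mean square difference of centred log2(TMM CPM + 1), a measure in which the scaling of a library nearly cancels. The difference between 12S and 16S rRNA was 0.34 over the 5 libraries. By this measure 16S rRNA was the 8th nearest of 736 features to 12S rRNA, and 12S rRNA the 13th nearest to 16S rRNA, so that each had other features closer to it. The median difference of all 736 features was 1.19 from 12S and 1.01 from 16S rRNA. The 5 features nearest to 12S rRNA lay at 0.22 to 0.25. They were ENSRNOG00000029145, a feature of 68 bp, ENSRNOG00000033615 (348 bp), ENSRNOG00000030700 (784 bp), ENSRNOG00000030371 (684 bp) and ENSRNOG00000031979 (681 bp). The 5 nearest to 16S rRNA lay at 0.21 to 0.26. They were ENSRNOG00000014618 (1022 bp), ENSRNOG00000031979, ENSRNOG00000030371, ENSRNOG00000050563 (756 bp) and ENSRNOG00000030644 (955 bp). Both lists share ENSRNOG00000031979 and ENSRNOG00000030371, with mean counts of 1021786 and 653042. No feature in these lists was matched to a gene symbol. Whether they are other transcripts of the mitochondrial genome was therefore not tested. All points come from the same 5 libraries, and the values are a description.

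**Figure D4:**
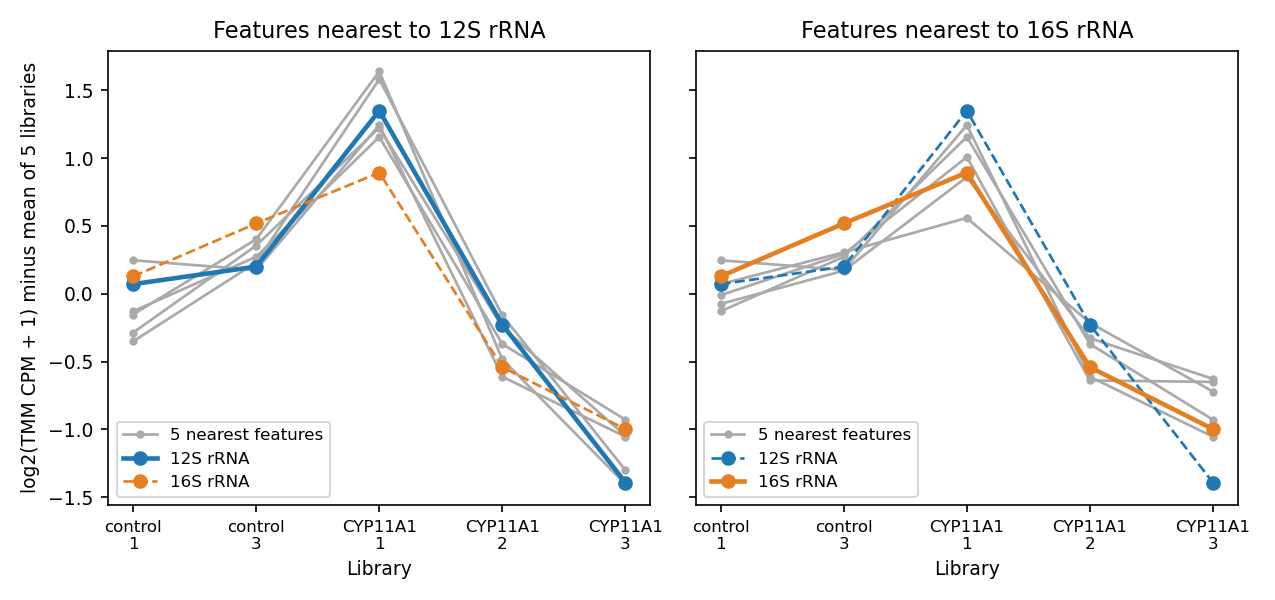
Centred log2(TMM CPM + 1) of 12S and 16S rRNA and, in grey, of the 5 features nearest to 12S (left) and to 16S rRNA (right). Lines join the values of 1 feature and imply no order of the libraries; with the TMM factors all curves peak in CYP11A1 1, whereas in CPM scaled to the total 16S rRNA was highest in control 3 (53782), and 12S rRNA falls to -1.39 in CYP11A1 3 against -0.998 for 16S rRNA.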

How the data were processed

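The authors deposited raw read counts per feature and FPKM, the same counts divided by feature length and library total. Per the labels, the submitters' processing notes name HISAT2 2.0.4 and HTSeq 0.9.1. The genome build, the annotation and the treatment of reads that match several places, such as nuclear copies of mitochondrial DNA, are not given in the sources used here. The labels name a small RNA kit and the methods a full-length cDNA kit for low input, and the methods were followed.

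Counts were tested with edgeR 4.0.16 (quasi-likelihood test, TMM, filterByExpr with a minimum count of 10) in R 4.3.3, with limma 3.58.1 and DESeq2 1.42.0 as alternatives and Benjamini-Hochberg adjustment over all features. The fit was tested on simulated data. Exact permutation tests used scipy 1.17.1. The genes named were both rRNAs and, for each, the 5 features nearest in pattern. The members and lists were chosen with earlier results of these data known. Lists that need gene symbols were planned and not run.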

Additional observations from a re-analysis of the deposited data

How the results depend on the processing

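The adjusted p stayed at 0.944 or above for 12S and 0.959 or above for 16S rRNA in all 18 alternatives. The log2 fold change of 12S rRNA, 0.20 with TMM, was -0.082 with library size alone, -0.26 with limma on FPKM (pseudocount 1 or 0.1, with or without a minimum FPKM), and ranged from -0.83 to 0.65 with each library left out in turn. That of 16S rRNA ranged from -1.09 to 0.030 when libraries were left out, and its sign was kept otherwise, with -0.54 with library size alone and -0.57 with limma on FPKM against -0.31 with TMM. With a single control left, its spread is assumed to equal that of the CYP11A1 libraries. In a fit with a replicate block (libraries 1 and 3 of both groups), the log2 fold change was -0.28 for 12S and -0.49 for 16S rRNA, with 0 features called. Same-numbered libraries did not vary together (r = -0.27 across 10346 features), and the crossed pairing, chosen after seeing the data, gave -0.28 and -0.49 with 0 called. The count of features called moved from 0 to 11 with DESeq2 and 10 without a filter on low counts. Leaving the 2 rRNA genes or the 100 most counted features out of the scaling, also chosen after seeing the data, kept the signs of both. The differences in the share of the rRNAs and in their ratio kept their sign with each library left out, and that in the share also in FPKM, at -0.82 points (1.87% against 2.69% in controls) in place of -1.43. FPKM cannot move the difference in log2 ratio. The ratio to mitochondrial mRNAs, scaling without all mitochondrial features, and the gene lists were not run for want of gene symbols. The number of libraries and their spread, not the counts of the rRNAs, limit the precision.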

Other observations

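Set against only the 10 most counted features of each library, 16S rRNA made up 7.46% and 8.98% of their counts in control 1 and control 3, and 6.17%, 6.14% and 5.53% in CYP11A1 1, 2 and 3. The groups did not overlap for 16S rRNA by this measure, as for 12.9% of the 10346 features tested, and they overlapped for 12S rRNA. The measure was picked after its values were seen and no test was made of it. These 10 features took 37.5% of all counts in CYP11A1 3 and 65.4% in CYP11A1 1, and which features they are differs between libraries.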
